A study of Homo sapiens with 8 samples.

Results

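The 10 circadian clock genes BHLHE40, BHLHE41, PER1, PER2, PER3, CRY1, CRY2, CLOCK, NR1D1 and NR1D2 were taken by symbol from the 15852 genes of the count table, which held all 10. After knockdown of the BOLA3-L isoform in KYSE150 cells, 7 of the 10 fell and 0 rose. Of all tested genes 15.6% fell and 15% rose. Under 19 alternative fits, which include leaving out single libraries, the number of the 10 that fell was 4 to 7. The falls ran from BHLHE40, which dropped to 56.5% of its control level, and PER1, which dropped to 74.7%, through NR1D1, PER2, NR1D2 and CLOCK to CRY1, which dropped to 88.3%. BHLHE41, PER3 and CRY2 stood at 85.3%, 95.4% and 97.2% of control and did not pass the test.

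The molecular clock of mammalian cells is a loop of transcription and repression. CLOCK and BMAL1 form a dimer that binds E-box sequences and activates the PER and CRY genes, whose proteins return to the nucleus and repress that dimer. The nuclear receptors NR1D1 and NR1D2 (REV-ERB alpha and beta) repress BMAL1 in a linked loop, and the basic helix-loop-helix proteins BHLHE40 and BHLHE41 (DEC1 and DEC2) bind E-boxes as repressors. The clock runs in most peripheral cell types, epithelial cells among them, and cells of a culture that has not been synchronized are spread over its phases.

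KYSE150 is an established esophageal squamous cell carcinoma line. RNA was sequenced from 4 control libraries, whose genotype the labels give as Control, and 4 libraries in which the BOLA3-L isoform was knocked down, with the genotype ShBOLA3-L; both groups carry the treatment label None. The labels give neither the hairpin sequence, nor what the control cells carried, nor a time of harvest or a synchronizing step. Whether the 4 libraries of a group came from separate cultures is not stated, so p-values measure only the spread between these libraries, which may be technical. BOLA3, the targeted gene, was counted at 19.1 to 21.8 CPM (counts scaled to library size, as defined by edgeR) in the controls and at 6.06 to 7.29 CPM in the knockdown libraries, with all of its isoforms counted together.

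Depth ranged from 31178036 to 35147860 counts per library, and 3 counts correspond to 0.0854 to 0.0962 CPM. The markers of squamous epithelium summed to 4819 to 4851 CPM in controls and 3102 to 3451 CPM after knockdown, led by KRT5. The 7 fibroblast markers summed to 9.94 to 14.8 CPM in controls and 4.53 to 7.26 CPM after knockdown, and the 4 endothelial markers to 0.88 to 1.82 and 1.87 to 2.44 CPM; none of the markers was at 0 in all libraries. The part of these sums in the results was not tested. The 6 leukocyte markers summed to 73.9 to 84.6 CPM, of which CD68, a lysosomal protein also made by epithelial cells, gave a mean of 78.4 CPM. BOLA3-L knockdown replicate 1 stood apart from the other knockdown libraries on the second principal component (20.1 against -10.1 to -4.81). Its log2 CPM exceeded the mean of the other 3 knockdown libraries by a median of 0.15 in the 2896 tested genes of lowest transcript GC content and lay below it in the 2896 of highest GC content (median -0.22).

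Each gene was tested in a fit over all 11841 genes with enough counts (edgeR's quasi-likelihood test, Benjamini-Hochberg adjustment over all of them, threshold 0.05), and all 10 clock genes were among those tested. The 7 falls are to be read against a background in which 15.6% of all tested genes fell, 15% rose and 30.7% changed in either direction. The 10 genes were chosen with earlier results of these data known, so no comparison with all tested genes tests them as a set. None of the 10 rose by edgeR (0 before adjustment at 0.05, and 0 with DESeq2). The log2 change was below 0 in all 10 genes, with a median of -0.24, while over all tested genes the median was 0.0 and 49.7% lay below 0. In 4 of the 10, BHLHE40, PER1, PER2 and NR1D2, every knockdown library lay below every control library, as it did in 15.6% of all tested genes, and in the other 6 the groups overlapped. In 14.6% of tested genes, and in none of these 10, every knockdown library lay above every control. In such bulk libraries, fewer cells that make a transcript and less of it per cell cannot be told apart. Without control replicate 1 the number that fell was 4 (BHLHE40, PER1, CLOCK and NR1D2), and it was 5 to 7 without any other single library.

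**Figure D1:**
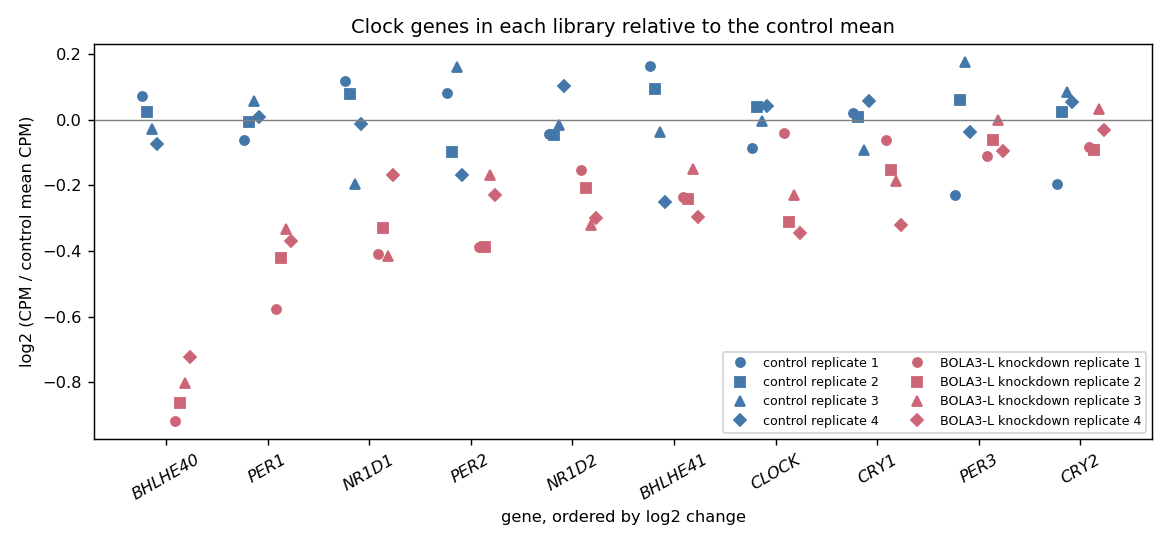
Level of each of the 10 clock genes in each library as log2 of its CPM over the control mean, with genes ordered by log2 change; blue symbols are the 4 control libraries, red symbols the 4 BOLA3-L knockdown libraries, and the symbol shape gives the replicate number. BHLHE40 is the gene whose knockdown libraries lie farthest below the controls (36.6 to 41.9 CPM against 65.8 to 72.8 CPM), and in CLOCK knockdown replicate 1 lies among the controls.

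Because CLOCK, the PER and CRY proteins and the BHLHE proteins all act through E-boxes, the sequence before the transcription start of each gene was searched for them. The window was the 250 bases before the start that RefSeq gives on GRCh38.p14, which was matched for all 10 genes, and both strands were read. The E-box CACGTG was found in 3 of the 10 windows, those of BHLHE40, BHLHE41 and PER1, and in 8.99% of the windows of 9762 tested genes. The variant CACGTT, called the E-prime box, was found in the windows of PER2, CRY1 and NR1D1 and in 5.04% of those of tested genes. The 6 matches are shown with up to 12 bases on either side, 5′ to 3′ on the strand of the gene, with the motif in capitals; CACGTT reads AACGTG where it lies on the opposite strand.
BHLHE40 (chr3:4979187-4979209, plus strand): tccaaCACGTGagactcatgtga
BHLHE41 (chr12:26125068-26125097, minus strand): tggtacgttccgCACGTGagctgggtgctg
PER1 (chr17:8152560-8152589, minus strand): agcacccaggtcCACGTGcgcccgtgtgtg
PER2 (chr2:238288790-238288819, minus strand): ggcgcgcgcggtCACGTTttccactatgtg
CRY1 (chr12:107093621-107093650, minus strand): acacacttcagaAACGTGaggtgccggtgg
NR1D1 (chr17:40100740-40100769, minus strand): gcgcaagagctcAACGTGccggctgttgga
The motif began 245 bases before the RefSeq start in BHLHE40, 48 in BHLHE41, 173 in PER1, 197 in PER2, 89 in CRY1 and 168 in NR1D1. The gene spans given with the values below are those of GENCODE v29, which can start farther upstream: all of these sites but that of NR1D1 lie inside the GENCODE span of their gene. Of these 6 genes, BHLHE40, PER1, PER2, CRY1 and NR1D1 fell after knockdown and BHLHE41 did not pass the test. The windows of the other 4 genes hold neither motif, and of those CLOCK and NR1D2 fell. Of all tested genes 15.6% fell, and whether a fall goes with either motif was not tested. The D-box TTATGTAA, bound by DBP, TEF, HLF and NFIL3, was found in the window of PER3 (0.328% of tested genes). AGGTCA, the core of the element that NR1D1 and the ROR receptors bind, was found in those of PER1 and CRY2 (8.4%), and the cAMP response element TGACGTCA in 0 of the 10 (2.99%).

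Of the repressors that bind E-boxes directly, BHLHE40 (identifier 8553, chromosome 3, 4979116 to 4985323, GRCh38) showed the largest change of the 10. In the order of their replicate numbers, the 4 controls had 72.8, 70.4, 67.9 and 65.8 CPM, and the 4 knockdown libraries 36.6, 38.0, 39.7 and 41.9 CPM; values of the other genes follow this order. Every knockdown library stood far below the lowest control, and the gap between the groups exceeded the range within either. This was a log2 change of -0.82 with an SE of 0.0525 (edgeR adjusted p 1.7e-09), from 69.2 ± 3.02 to 39.1 ± 2.28 CPM (SD, n = 4 each), on 1156 to 2252 counts per library. A log2 change this low or lower was seen in 1.32% of tested genes. BHLHE40 is also known as a gene that hypoxia, serum and other stimuli induce outside the clock.

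BHLHE41 (identifier 79365, chromosome 12, 26120026 to 26125127), the closest relative of BHLHE40, was counted at 6.27, 5.97, 5.46 and 4.71 CPM in controls and at 4.76, 4.74, 5.05 and 4.56 CPM after knockdown. Control replicate 4 lay within the range of the knockdown libraries. The log2 change of -0.23 had a larger error (SE 0.12) on 150 to 194 counts per library and did not pass the test (edgeR adjusted p 0.16). Within a library, the log2 ratio of BHLHE40 to BHLHE41 counts was 3.53 to 3.8 in the controls and 2.94 to 3.2 after knockdown, a difference of -0.6 with no overlap between the groups. An exact two-sided permutation test of that difference gave p = 0.0286, which is the lower limit set by the 70 possible assignments. Adjusted over the 7 ratios of relatives compared, p was 0.1. With this floor, at least 5 of the 7 ratios would have to reach it for an adjusted p under 0.05, so these tests could hardly pass.

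Among the period genes, whose proteins form the repressor complex with the cryptochromes, PER1 and PER2 fell and PER3 did not pass. PER1 (identifier 5187, chromosome 17, 8140472 to 8156506) was counted at 18.6, 19.3, 20.2 and 19.5 CPM in controls and at 13.0, 14.5, 15.4 and 15.0 CPM after knockdown. The groups did not overlap, and knockdown replicate 1 was the lowest library. PER1 thereby fell by 0.42 on the log2 scale, with an SE of 0.0702 (edgeR adjusted p 1.7e-04). PER1 is the period gene known to respond most quickly to glucocorticoids and cAMP.

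PER2 (identifier 8864, chromosome 2, 238244038 to 238290102) was counted at 14.41, 12.69, 15.17 and 12.13 CPM in controls and at 10.4, 10.41, 12.05 and 11.55 CPM after knockdown. The groups were separated by a narrow margin, between control replicate 4 and knockdown replicate 3. PER2 fell by 0.29 on the log2 scale, with an SE of 0.0888 (edgeR adjusted p 0.0176), and the call was lost without control replicate 1 (adjusted p 0.0608), control replicate 3 (0.08) or knockdown replicate 2 (0.0611). PER3 (identifier 8863, chromosome 1, 7784320 to 7845177), a period protein that is dispensable for rhythms in mice, was counted at 3.62, 4.42, 4.79 and 4.13 CPM in controls and at 3.93, 4.06, 4.24 and 3.97 CPM after knockdown. All 4 knockdown libraries lay inside the range of the controls, and the difference was -0.07 on the log2 scale, with an SE of 0.13 (edgeR adjusted p 0.733).

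The period genes were compared with each other within a library, which needs no scaling between libraries. The log2 ratio of PER1 to PER3 was 2.07 to 2.36 in controls and 1.72 to 1.92 after knockdown, a difference of -0.36 (exact permutation p = 0.0286, adjusted p 0.1). That of PER2 to PER3 differed by -0.23 (exact permutation p = 0.0571, adjusted p 0.133) and that of PER1 to PER2 by -0.14 (exact permutation p = 0.2, adjusted p 0.233). PER1 thus lay lower against PER3 in every knockdown library than in any control, and the adjusted p values have the same limit.

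Of the cryptochromes, which bind and inhibit the CLOCK and BMAL1 dimer, CRY1 fell and CRY2 did not pass. CRY1 (identifier 1407, chromosome 12, 106991364 to 107093829) was counted at 33.2, 32.9, 30.7 and 34.0 CPM in controls and at 31.3, 29.4, 28.7 and 26.2 CPM after knockdown. Knockdown replicate 1 lay above control replicate 3, so that the groups overlapped. CRY1 fell by 0.18 on the log2 scale, with an SE of 0.0611 (edgeR adjusted p 0.0323). Its call was lost on leaving out control replicate 1, 2 or 4 or knockdown replicate 2, 3 or 4 (adjusted p 0.0558 to 0.115), and with limma on log2 FPKM (0.0557 to 0.1).

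CRY2 (identifier 1408, chromosome 11, 45847118 to 45883248) was counted at 15.7, 18.3, 19.1 and 18.7 CPM in controls and at 17.0, 16.9, 18.4 and 17.6 CPM after knockdown. Control replicate 1 was the lowest of the 8 libraries, and the difference was -0.04 on the log2 scale, with an SE of 0.0724 (edgeR adjusted p 0.711). The log2 ratio of CRY1 to CRY2 was 0.68 to 1.08 in controls and 0.57 to 0.88 after knockdown, a difference of -0.14 (exact permutation p = 0.2, adjusted p 0.233).

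CLOCK (identifier 9575, chromosome 4, 55427903 to 55547138), the activator among the 10 and a histone acetyltransferase, was counted at 85.4, 93.1, 90.4 and 93.3 CPM in controls and at 88.1, 73.0, 77.3 and 71.3 CPM after knockdown. Knockdown replicate 1 lay within the range of the controls, and the other 3 knockdown libraries lay below every control. CLOCK fell by 0.23 on the log2 scale, with an SE of 0.0575 (edgeR adjusted p 0.0058). Without knockdown replicate 1 the log2 change was -0.29 (adjusted p 1.9e-08), and with offsets corrected for transcript GC content it was -0.22 (adjusted p 2.7e-05). With the corrected offsets and without knockdown replicate 1 it was -0.24 (edgeR adjusted p 3.4e-07). The GC content of the CLOCK transcript is 37.2%, and 5.56% of tested genes have a lower one. CRY1 (37.2%) and NR1D2 (38.5%) are also among the genes of low GC content, and in these 3 genes knockdown replicate 1 was the highest of the knockdown libraries, by 0.25, 0.16 and 0.12 on the log2 scale over the mean of the other 3 in CLOCK, CRY1 and NR1D2. In PER1, with a GC content of 62.7%, knockdown replicate 1 was the lowest, with a difference of -0.21. In NR1D1 (59.5%) and CRY2 (57.0%), also of high GC content, it was not the lowest, with differences of -0.1 and -0.06. Of the genes of middle GC content, it was the lowest in BHLHE40 (52.0%), PER2 (52.4%) and PER3 (46.2%). The differences there were -0.12, -0.12 and -0.06, and in BHLHE41 (49.6%), where it was not the lowest, -0.01. With the GC-corrected offsets the log2 changes of CRY1, NR1D2 and PER1 were -0.17, -0.24 and -0.43, all called.

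Both REV-ERB receptors, heme-binding repressors of BMAL1, fell. NR1D1 (identifier 9572, chromosome 17, 40092787 to 40100725) was counted at 11.6, 11.3, 9.35 and 10.6 CPM in controls and at 8.05, 8.51, 8.02 and 9.53 CPM after knockdown. Only knockdown replicate 4 reached into the range of the controls, above control replicate 3. NR1D1 fell by 0.33 on the log2 scale, with an SE of 0.0949 (edgeR adjusted p 0.0127), and without control replicate 1 the call was lost at an adjusted p of 0.0502. Exons of NR1D1 overlap those of THRA, the thyroid hormone receptor alpha gene on the opposite strand, over 263 of 2772 exonic bases in GENCODE v29. Whether strand was used in counting is not stated, so reads of the overlap cannot be told apart. THRA averaged 18.4 ± 2.1 CPM in the control and 17.1 ± 1.32 CPM in the knockdown libraries (SD, n = 4 each; log2 change -0.11, edgeR adjusted p 0.363).

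NR1D2 (identifier 9975, chromosome 3, 23945260 to 23980618) was counted at 80.5, 80.2, 81.9 and 89.0 CPM in controls and at 74.5, 71.7, 66.3 and 67.4 CPM after knockdown. Every knockdown library lay below every control. NR1D2 fell by 0.24 on the log2 scale, with an SE of 0.0496 (edgeR adjusted p 0.00104). The ratio of NR1D1 to NR1D2 within a library differed by -0.09 on the log2 scale between the groups (exact permutation p = 0.486, adjusted p 0.486), with control libraries at -3.13 to -2.79 and knockdown libraries at -3.21 to -2.82.

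Among genes of the count table, others on the opposite strand share exonic bases with BHLHE41 (SSPN, 162 bases), PER3 (UTS2, 868 bases) and CLOCK (TMEM165, 76 of 11762 bases). SSPN was counted at most 14 times and UTS2 at most 1 time in any library. TMEM165 averaged 34.7 ± 0.954 CPM in the control and 30.9 ± 3.03 CPM in the knockdown libraries (SD, n = 4 each; log2 change -0.17, edgeR adjusted p 0.0559), and its part in the counts of CLOCK was not tested. Of the 75-base windows of the transcripts of each gene, 0 occur in transcripts of other genes for 9 of the 10, and 0.0989% do for PER1.

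Levels were compared between genes per length, as FPKM (fragments scaled to gene length and library size), on the authors' values. The order of the genes depends on the length behind each value. For CRY1 and CRY2 these lengths are 2832 and 4295 bases, while merged GENCODE v29 exons give 5062 and 6200. For CLOCK the lengths are closer, at 11818 and 11762 bases. The order with other lengths was not tested. BHLHE40 led the controls at 21.7 ± 0.94 FPKM, ahead of NR1D2 (15.3 ± 0.769), CRY1 (11.5 ± 0.49) and CLOCK (7.61 ± 0.315; SD, n = 4 each). The ranges of these 4 genes did not overlap in the controls. CRY2 (4.15 ± 0.359), NR1D1 (4.05 ± 0.38) and PER1 (3.55 ± 0.115) followed, and neighbours among these 3 overlapped in the controls. PER2 (2.0 ± 0.209), BHLHE41 (1.49 ± 0.181) and PER3 (0.746 ± 0.0877) were lowest, each apart from the next.

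By the same lengths, the order after knockdown was unchanged from CRY1 down, and BHLHE40 and NR1D2 changed places. NR1D2 stood at 13.1 ± 0.739 FPKM and BHLHE40 at 12.4 ± 0.7 FPKM (SD, n = 4 each), with overlapping ranges (12.5 to 14.1 and 11.7 to 13.3 FPKM). BHLHE40 was still apart from CRY1, the next gene in the order, so that of its lead in the controls only that over NR1D2 was lost.

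**Figure D2:**
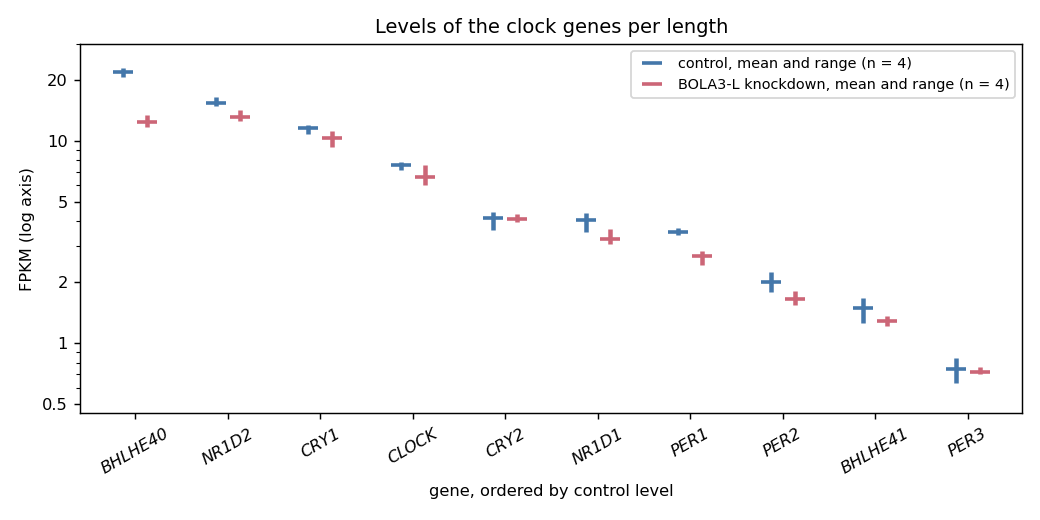
FPKM of the 10 clock genes on a log axis, ordered by control level; horizontal marks are means and vertical bars the range of the 4 libraries of each group (blue, control; red, BOLA3-L knockdown). BHLHE40 is the highest gene in controls (21.7 FPKM) and lies at 12.4 FPKM beside NR1D2 (13.1 FPKM) after knockdown.

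By the rule for like patterns, the 3 genes of at least 5 CPM whose log2 level, centred on the control mean, followed that of BHLHE40 most closely over the 8 libraries were SREBF1, PTHLH and RBMS3, out of 10133 genes compared. Their root mean square distances from BHLHE40 were 0.06, 0.0689 and 0.0691 on the log2 scale. SREBF1, a transcription factor of lipid synthesis, went from 144 ± 4.43 to 82.7 ± 5.64 CPM, PTHLH, which encodes parathyroid hormone-related protein, from 67.3 ± 2.26 to 37.4 ± 1.94 CPM and the RNA-binding protein gene RBMS3 from 7.93 ± 0.476 to 4.55 ± 0.225 CPM (SD, n = 4 each). Their log2 changes were -0.80, -0.85 and -0.80, beside -0.82 for BHLHE40. Because the rule chose these genes by their levels in the same 8 libraries, changes near that of BHLHE40 follow from the choice.

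Related genes of the clock were read from 8 lists, of which 46 genes are covered here. Among them, RORB, HLF, FBXL21 and ZBTB16 were not in the count table, and NPAS2, RORA, CIART, KLF9 and PPARGC1A were not tested. The partners of CLOCK did not pass the test. BMAL1 was counted at 9.05, 8.84, 6.89 and 7.11 CPM in controls and at 6.97, 6.86, 7.93 and 7.38 CPM after knockdown (log2 change -0.13, SE 0.11, edgeR adjusted p 0.409). Its relative BMAL2 stood at 121 ± 3.79 and 120 ± 5.7 CPM (SD, n = 4 each; log2 change -0.01, adjusted p 0.854). NPAS2, which can take the place of CLOCK, had at most 9 counts in any library and was not tested. The log2 ratio of CLOCK to NPAS2 differed by 0.62 (exact permutation p = 0.0857, adjusted p 0.15), and by -0.07 on FPKM with a pseudocount of 0.1 (adjusted p 0.4).

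Of the ROR receptors, which activate BMAL1 at the sites the REV-ERB receptors occupy, RORA was at or below 0.0608 CPM in every library. The D-box factors did not pass the test: DBP, a direct target of CLOCK and BMAL1, stood at 6.62 ± 0.928 and 7.13 ± 0.509 CPM (SD, n = 4 each; log2 change 0.11), the log2 change of TEF was -0.24 (edgeR adjusted p 0.147) and that of NFIL3 -0.20 (edgeR adjusted p 0.0795). CIART, a repressor of the CLOCK and BMAL1 dimer, was at or below 0.159 CPM in every library. Of the other clock proteins, TIMELESS, which also acts at replication forks, fell from 110 ± 3.53 to 96.4 ± 3.35 CPM (SD, n = 4 each), by 0.18 on the log2 scale (edgeR adjusted p 0.00244). Its partner TIPIN, which shares 8.7% of its windows with other genes, did not pass (0.09, adjusted p 0.222).

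Of the kinases and ubiquitin ligases that act on the PER and CRY proteins, 8 tested genes are reported here, of which 1 rose and 7 did not pass (30.7% of all tested genes changed). FBXW11, a ligase subunit that recognizes phosphorylated PER proteins, rose from 119 ± 2.73 to 142 ± 4.65 CPM (SD, n = 4 each; 0.26, edgeR adjusted p 7.0e-05). CSNK1D, the main kinase of PER proteins, stood at 134 ± 1.6 and 132 ± 7.02 CPM and did not pass (adjusted p 0.732). CSNK1E was counted at 1.01 to 2.2 CPM, but 52.1% of its sequence windows also occur in other genes, so its level is uncertain.

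Of 10 corepressors and coactivators 4 fell and 1 rose, where 15.6% of all tested genes fell and 15% rose; their median log2 change was -0.04, beside 0.0 over all tested genes. The acetyltransferase EP300, a coactivator of the CLOCK and BMAL1 dimer, fell from 108 ± 4.25 to 80.8 ± 4.87 CPM (SD, n = 4 each; -0.42, edgeR adjusted p 3.2e-06). Its relative CREBBP did not pass (-0.06, adjusted p 0.381), nor did NCOR1 (-0.02, adjusted p 0.721) and HDAC3 (0.03, adjusted p 0.651), through which the REV-ERB receptors repress. The RNA-binding proteins PSPC1 (-0.18, adjusted p 0.0026), NONO (-0.10, adjusted p 0.021) and SFPQ (-0.08, adjusted p 0.0419), which associate with PER complexes, fell, and WDR5 rose (0.12, adjusted p 0.018). NONO and PSPC1 share 10.5% and 4.9% of their 75-base windows with other genes, so their counts are uncertain.

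Some of these calls were lost when a library was left out or with another method. NONO lost its call without control replicate 1, 2 or 3 or knockdown replicate 2 or 4 (adjusted p 0.0525 to 0.0698) and with limma on log2 FPKM (0.0612 to 0.0664), and WDR5 without control replicate 3 (0.0667) or 4 (0.0552). SFPQ lost it without control replicate 1, 2 or 3 or knockdown replicate 2, 3 or 4 (0.0691 to 0.12), with upper quartile factors (0.0671), with no filter on low counts (0.0887) and with limma on log2 FPKM (0.0797 to 0.139).

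Of 6 tested clock-controlled outputs 2 fell and 1 rose, beside 15.6% and 15% of all tested genes, and their median log2 change was 0.05. KLF10, a zinc finger repressor under clock control, was counted at 54.4, 56.2, 51.1 and 50.8 CPM in controls and at 34.4, 32.8, 34.7 and 33.3 CPM after knockdown, with no overlap (log2 change -0.65, SE 0.0515, edgeR adjusted p 3.0e-08). USP2, a deubiquitinase, fell by 0.36 on the log2 scale (adjusted p 0.0195), and the cell cycle kinase WEE1 rose by 0.14 (adjusted p 0.0339). NAMPT, the enzyme of NAD salvage, which shares 22.3% of its windows with other genes, did not pass (0.06, adjusted p 0.27). USP2 lost its call without control replicate 2 or 3 or knockdown replicate 2 or 3 (adjusted p 0.0638 to 0.0787) or with limma and no minimum (0.08), and WEE1 without control replicate 1, 2 or 4 or knockdown replicate 4 (0.0536 to 0.112).

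Glucocorticoid-induced genes were listed because PER1 is among the genes that glucocorticoids induce. Of 6 tested, 4 rose and 1 fell, against a background of 15% and 15.6%, and their median log2 change was 0.22. SGK1, a serum and glucocorticoid kinase, rose from 30.5 ± 0.432 to 43.0 ± 2.13 CPM (SD, n = 4 each; 0.50, edgeR adjusted p 1.2e-06), the metallothionein MT2A by 0.26, FKBP5 by 0.18 and the phosphatase DUSP1 by 0.27. TSC22D3, which encodes GILZ, fell from 16.8 ± 1.13 to 11.6 ± 1.02 CPM (-0.53, adjusted p 7.3e-05). ERRFI1 did not pass (0.13, edgeR adjusted p 0.156). PER1 moved in the direction of TSC22D3 and opposite to the 4 genes that rose. Whether glucocorticoids have a part in the change of PER1 was not tested. DUSP1 lost its call (adjusted p 0.0344) without control replicate 2, 3 or 4 or knockdown replicate 2 or 4 (0.0676 to 0.0992).

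**Figure D3:**
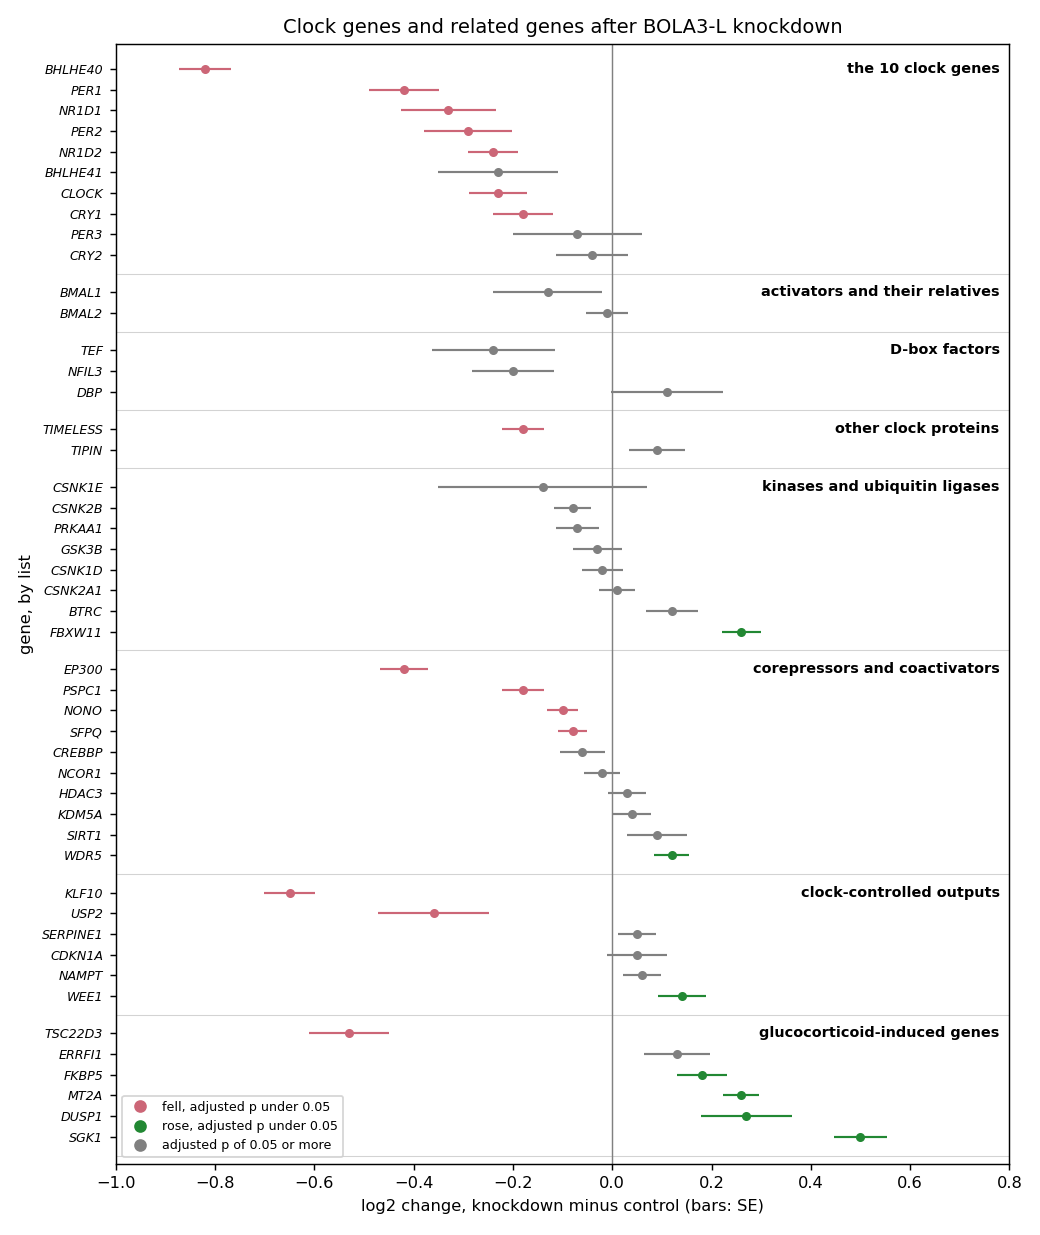
Log2 change after BOLA3-L knockdown of the 10 clock genes and of the tested genes reported here from the related lists, with bars for the SE; red marks genes that fell and green genes that rose at an adjusted p under 0.05, and grey those that did not pass. All 10 clock genes lie left of 0 (median -0.24), as do the tested activators BMAL1 (-0.13) and BMAL2 (-0.01). The D-box factors (median -0.2) and the corepressors and coactivators (median -0.04) lie on both sides.

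**Figure D4:**
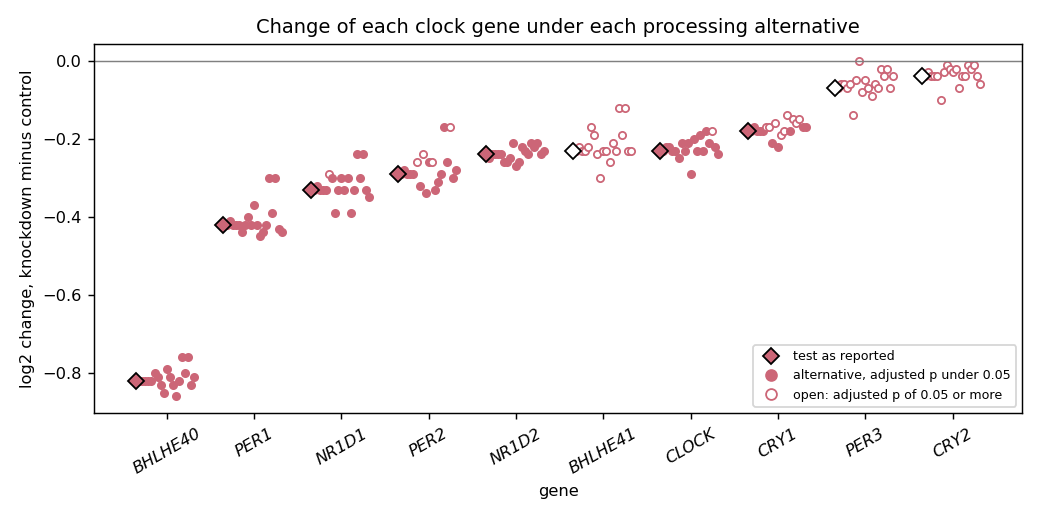
Log2 change of each clock gene in the test as reported (diamonds) and under each of the 19 alternatives (circles); filled symbols have an adjusted p under 0.05 and open symbols do not. BHLHE40 (-0.86 to -0.76), PER1 (-0.45 to -0.30) and NR1D2 (-0.27 to -0.21) are filled throughout, and CRY1 (-0.22 to -0.14) is the gene most often open among the 7 that fell.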

How the data were processed

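RNA of KYSE150 cells was sequenced as 150 bp paired-end reads, which were filtered with fastp per the series' design text. The build is hg38 per the submitters' processing notes; for the aligner, counter and annotation, the tools are not given in the sources used. The deposited table of raw counts per gene (8 libraries) was tested as deposited. The authors' FPKM values served for levels between genes; each of the 110558 values above 0 follows from the count, the library total and a single gene length (relative tolerance 1e-06), and so adds no independent measurement.

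Counts were filtered with filterByExpr, normalized by TMM and tested with the quasi-likelihood test of edgeR, fitted robustly and without a block (SE is the absolute log2 change over the root of F; edgeR 4.0.16 in R 4.3.3, with DESeq2 1.42.0, limma 3.58.1 and Python 3.11.15). Ratios of relatives (log2, prior count 0.5) were compared with exact permutation tests. The fit was tested on simulated data. Alternatives were RLE and upper quartile factors, other filters, a replicate block, leaving out each library, DESeq2 and limma on log2 FPKM; offsets corrected for GC content (loess; 97.8% of tested genes) were added after seeing the data. Named were all 10 genes, BOLA3, list members past the threshold, NPAS2, BMAL1, overlapping genes and the 3 genes most like BHLHE40; other list members named for context were chosen after their values were seen. Gene models come from GENCODE v29 and sequences from RefSeq. Results of 2 list genes are not reported here, and list counts leave them out. The 10 genes and the lists were chosen with earlier results of these data known.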

Additional observations from a re-analysis of the deposited data

Results flagged for a closer look

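SFPQ, an RNA-binding protein that associates with PER complexes, was counted at 595 CPM in control replicate 4, below the 615 to 619 CPM of the other 3 controls. The gap took up 0.834 of the range of the 4 controls, above Dixon's critical value for 4 samples. It was the single such library among 52 groups of 4 examined, of which chance flags about 1 in 20.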

How the results depend on the processing

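The number of clock genes that fell was 7 in the test as reported, 4 to 7 when each library was left out in turn, and 4 with limma on log2(FPKM + 1) with no minimum, where PER2, CRY1 and CLOCK (adjusted p 0.0748, 0.1 and 0.0797) were not called; 0 rose under any of the 19 alternatives. BHLHE40, PER1 and NR1D2 were called under all 19, CLOCK and NR1D1 under 18, PER2 under 15 and CRY1 under 10. No log2 change of the 10 genes was above 0 under any of the 19, and that of PER3, which was never called, came as near as -0.0 after rounding. The count over all genes ran from 2841 to 5081 and that over the related lists from 10 to 20. Same-numbered libraries of the 2 groups were not shown to be paired: their deviations from the group means correlated by -0.0444 to 0.0876, and 1 of 4 control libraries correlated best with its own number. With the replicate block, 7 clock genes and 3392 genes in all were called, and of the related lists 13 genes in place of 15, with SFPQ (adjusted p 0.0743) and DUSP1 (0.0509) lost. In that paired form the exact sign-flip test of a ratio cannot go below p = 0.125. Genes with 112 to 194 counts per library, PER3 and BHLHE41, had the largest errors (SE 0.13 and 0.12).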
